A study of Schizosaccharomyces pombe with 2 samples.

Results

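The 4 regions of the fission yeast chromosome arms with the highest BrdU summits on the wild-type array lie beside 7 genes: apc5 on chromosome I, the divergent pair duo1 and rum1 on chromosome II, the pair coq11 and lsm8 on chromosome III, and, elsewhere on chromosome III, the divergent pair nup60 and trs130. They are 4 of 434 arm regions that were enriched on the wild-type array, and their windows hold 464 of 41240 chromosome tiles. The members were chosen by their wild-type summit heights, so those heights and the wild-type ranks are given as a description and support nothing. That choice rests on the wild-type ratio of IP over input, so a high IP or a low input on that array both favour a region. The sap1-1 array, the gene arrangement and the DNA sequence were not used directly, but earlier results of these data were known. Input signal followed GC content (r = 0.578 on the arm of apc5, 0.589 for rum1, 0.549 for coq11 and nup60). AT content and a place in AT-rich gaps are therefore not independent of the choice. Relative to tiles of like GC content, the wild-type ranks were 47 at apc5, 4 at rum1, 27 at coq11 and 70 at nup60.

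BrdU, a thymidine analogue built into newly made DNA, was measured in sap1-1 cells and in wild-type cells of Schizosaccharomyces pombe with 1 two-colour tiling array for each strain. The sap1-1 strain has the genotype cdc10-v50 sap1-1 and the strain called wild-type has the genotype cdc10-v50, so the control also carries the cdc10 allele. Both are in the 972h background and carry 2 modules that let the cells use BrdU, Pnmt1-TK for thymidine kinase and Padh1-hENT for a nucleoside transporter. Both cultures were held at 35 °C for 4 h, which arrests cdc10 mutants, and were then shifted to 26 °C with 10 mM hydroxyurea and 200 µM BrdU, before 0.1% sodium azide was added. DNA pulled down with an antibody to BrdU (the immunoprecipitate, IP) was labelled with Cy5 and the input, DNA of the whole-cell extract, with Cy3. With 1 array per strain there is no replicate, no test was possible, and effects of the strain, the culture, the pull-down and the array cannot be told apart. Every standard error (SE) or standard deviation (SD) here is over tiles of 1 array pair, and covers tile scatter only.

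Replication starts at origins, where the origin recognition complex binds, the MCM helicase is loaded in G1 and forks leave in both directions. Fission yeast origins have no strict consensus sequence. They are AT-rich stretches, mostly between genes, and the Orc4 subunit holds AT-hook motifs that bind them. Hydroxyurea blocks ribonucleotide reductase, so forks run short of deoxynucleotides and BrdU stays near the origins that fired early. Cdc10 is part of the transcription factor that starts S phase, and Sap1 is an essential DNA-binding protein that acts at replication fork barriers and at the mating-type locus.

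The genes at these origins work in unrelated processes. Apc5 is a subunit of the anaphase-promoting complex, the ubiquitin ligase that ends mitosis. Duo1 is a subunit of the DASH complex, which ties kinetochores to microtubules, and Rum1 is the inhibitor of the cyclin-dependent kinase that holds cells in G1. Coq11 is named for coenzyme Q biosynthesis, a role known from budding yeast. Lsm8 belongs to the nuclear Lsm ring that binds a spliceosomal RNA. Nup60 is a nucleoporin of the nuclear basket, and Trs130 is a subunit of the TRAPP complex of vesicle traffic.

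All 4 sap1-1 summits lay in the gap between a pair of divergently transcribed protein-coding genes, and so did all 4 wild-type summits. The pairs are apc5 and SPAP32A8.02, duo1 and rum1, coq11 and lsm8, and nup60 and trs130. When the ratio was taken relative to tiles of like GC content, several summits moved out of these gaps. In wild-type they moved by 3.3 kb at apc5, -2.7 kb at rum1 and -0.9 kb at coq11 (negative is left). In sap1-1 they moved out by -2.7 kb at rum1 and -2.4 kb at coq11. The nup60 summits did not move. The gene arrangement at the moved summits was not determined. Divergent gaps hold 9.84% of all arm tiles, 43.1% of the sap1-1 summits (53 of 123) of other arm regions of at least 5 kb, and 48.7% of the wild-type summits (76 of 156) of such regions. The gaps were 1804, 872, 2408 and 1881 bp long in the order of the pairs above, against a median of 790.5 bp over 1256 divergent gaps of the genome. Their AT content was 71.3%, 73.4%, 73.0% and 72.5%, against a median of 68.6% over divergent gaps of at least 300 bp. The loci were chosen by a ratio over input, and input is lower on AT-rich tiles. The AT content and the place in these gaps are therefore a description.

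The most AT-rich 300 bases of the gaps at apc5, coq11 and nup60 are shown because their centres lie within 362 bp of the centre of the wild-type summit tile. They also carry the homopolymer runs by which these 3 loci differ. Letters are from the + strand of the NCBI RefSeq reference ASM294v3, and the gaps were found by the annotated gene ends in that reference. Tile numbering differs from it by 1 offset per arm, so that tile and sequence correspond to within about 1 tile. That offset was found by matching GC content to the input signal. The place of AT-rich bases near summits of low input is therefore not independent of it. Capitals mark runs of at least 6 A or 6 T (AAAAAA or TTTTTT, searched on this strand, which covers both strands), and 55.2% of all 41905 windows of 300 bases hold at least 1 such run.
apc5 to SPAP32A8.02 (I:3404763-3405062): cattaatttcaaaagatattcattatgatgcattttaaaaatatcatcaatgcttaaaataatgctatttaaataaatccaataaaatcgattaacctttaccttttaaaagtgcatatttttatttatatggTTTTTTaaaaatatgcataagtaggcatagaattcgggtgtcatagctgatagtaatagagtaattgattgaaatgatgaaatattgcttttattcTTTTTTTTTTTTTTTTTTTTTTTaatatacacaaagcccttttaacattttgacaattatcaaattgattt
coq11 to lsm8 (III:2275973-2276272): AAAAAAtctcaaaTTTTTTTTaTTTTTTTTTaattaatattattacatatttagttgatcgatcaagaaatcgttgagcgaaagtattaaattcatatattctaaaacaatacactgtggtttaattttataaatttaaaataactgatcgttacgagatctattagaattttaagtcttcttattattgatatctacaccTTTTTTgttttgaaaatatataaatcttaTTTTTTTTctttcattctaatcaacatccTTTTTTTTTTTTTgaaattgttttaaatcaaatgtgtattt
nup60 to trs130 (III:1821880-1822179): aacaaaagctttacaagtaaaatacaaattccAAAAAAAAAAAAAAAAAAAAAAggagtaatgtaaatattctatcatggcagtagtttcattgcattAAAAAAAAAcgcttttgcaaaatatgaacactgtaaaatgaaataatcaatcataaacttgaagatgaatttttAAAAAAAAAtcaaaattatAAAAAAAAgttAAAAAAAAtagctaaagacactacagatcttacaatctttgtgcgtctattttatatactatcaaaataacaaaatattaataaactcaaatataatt

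The 3 sequences had 79.0%, 81.3% and 80.0% AT in the order printed, against a median of 64.0% over all windows of 300 bases. Between 0.0573% and 0.231% of those windows were at least as AT-rich. Each sequence was picked as the most AT-rich of its gap, and the windows were not picked. Low shares therefore follow in part from the picking. The centres of the sequences lay at 362, 172 and -21 bp from the centre of the wild-type summit tile (negative is left). At all 3 loci the printed sequence was the most AT-rich 300 bases anywhere in the window of 29 to 35 kb around the origin. The sequences differ in their runs: within the 300 bases, apc5 has 2 runs, both of T and up to 23 long, coq11 has 6 runs, 5 of them of T, and nup60 has 5 runs, all of A and up to 22 long. At least as many runs as in the apc5 sequence were found in 23.9% of all windows. For the coq11 sequence that share was 0.305%, and for the nup60 sequence 0.983%. The sequences were picked for AT content and the windows were not, so these shares are a description. A run is a feature of the letters and says nothing about what binds there.

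Values are log2 of processed IP over processed input signal, centred on the median of each array, so 1 means 2-fold above that median. For summits and widths they were averaged over tiles within 500 bp either side. A region is a run of at least 3 tiles at or above 1, joined with runs under 1000 bp away, and the sap1-1 array had 614 arm regions by this rule. Neighbouring tiles differed with an SD of 1.02 on the sap1-1 array and 0.60 on the wild-type array, so single tiles are noisier in sap1-1. The mean difference over all chromosome tiles was -0.15 (sap1-1 minus wild-type).

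The summit heights were close in the strains at 3 of the 4 loci and lower in sap1-1 at coq11. At apc5 the smoothed summit was 4.02 in sap1-1 and 3.72 in wild-type. At rum1 it was 3.73 in sap1-1 and 3.62 in wild-type, at nup60 3.40 in sap1-1 and 3.50 in wild-type, and at coq11 2.97 in sap1-1 and 3.55 in wild-type. Among all arm regions of its array, apc5 ranked 1 in sap1-1 (of 614) and 1 in wild-type (of 434), and rum1 ranked 4 in sap1-1 and 2 in wild-type. The coq11 origin ranked 52 in sap1-1 and 3 in wild-type, and nup60 ranked 12 in sap1-1 and 4 in wild-type. The lowest member by wild-type height was nup60 at 3.50. The first region outside the choice, on chromosome III at tile positions 1710900 to 1733699, had a maximum of 2.56 in sap1-1 and a summit of 3.49 in wild-type.

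The highest smoothed tile was the same tile in both strains at rum1, coq11 and nup60, and at apc5 it lay 300 bp, 1 tile, further right in sap1-1 than in wild-type. With a correction for GC content the summits of the strains lay apart at 2 loci, having moved by 0.6 kb in sap1-1 and 3.3 kb in wild-type at apc5, and by -2.4 kb in sap1-1 and -0.9 kb in wild-type at coq11 (negative is left). Among the other 153 arm regions of at least 5 kb found on both arrays, the maximum in sap1-1 minus the wild-type summit had a median of 0.05 and quartiles of -0.22 and 0.28. The maxima of apc5 (0.30), rum1 (0.10) and nup60 (-0.10) lie at or near that span, and that of coq11 (-0.58) lies below it. The scanning software deposits an error with each log ratio. At the wild-type summit tile the single-tile difference was 0.30 with a software error of 0.60 at apc5 and 0.08 with 0.59 at rum1. It was -0.85 with 0.48 at coq11 and -0.31 with 0.57 at nup60, so among these 4 tiles it exceeded its error at coq11 alone. The tiles were chosen by a high wild-type value, which favours a negative difference. Neighbouring tiles differ from them. At apc5 the tiles 600 and 900 bp to the left differed by -0.87 with 0.36 and -1.17 with 0.35. The coq11 tile 300 bp to the right differed by -0.27 with 0.52.

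**Figure D1:**
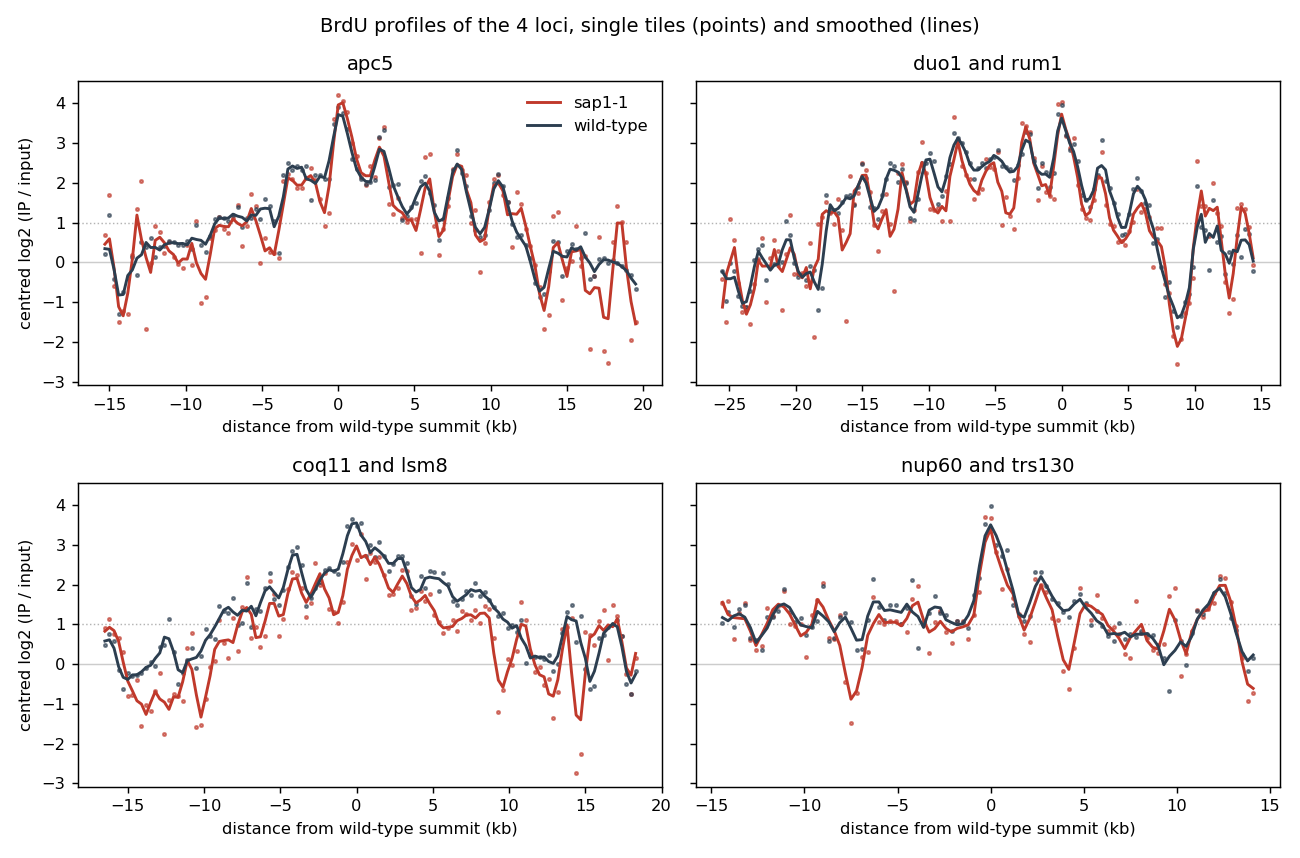
Centred log2 IP over input (y) against distance in kb from the wild-type summit (x) at the 4 loci, sap1-1 in red and wild-type in blue; points are single tiles, lines are means over tiles within 500 bp either side, and the dotted line is the enrichment threshold of 1. The summits coincide at rum1, coq11 and nup60 and lie 300 bp (1 tile) apart at apc5. At coq11 the sap1-1 line runs below the wild-type line over nearly the whole region (60 of 64 tiles lower).

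The peaks were narrower in sap1-1 at the threshold of 1. The enriched region spanned 15.9 kb in sap1-1 and 19.5 kb in wild-type at apc5, 16.2 kb in sap1-1 and 24.3 kb in wild-type at rum1, and 16.5 kb in sap1-1 and 19.2 kb in wild-type at coq11. At nup60 it spanned 4.5 kb in sap1-1 and 12.6 kb in wild-type. Within or across the edge of the wild-type region the sap1-1 array also had separate short regions, of 0.9 kb at apc5, of 3.9 and 1.2 kb at rum1 and of 3.0 and 1.5 kb at nup60, so the wild-type region there corresponds to several regions on the sap1-1 array. At a threshold of 2 the widths were 5.7 kb in sap1-1 and 6.9 kb in wild-type at apc5, 4.8 kb in sap1-1 and 12 kb in wild-type at rum1, 4.2 kb in sap1-1 and 10.5 kb in wild-type at coq11, and 1.5 kb in sap1-1 and 1.8 kb in wild-type at nup60. Over 15 settings of the processing, the plain one included, the width at the threshold was smaller in sap1-1 in 15 at apc5 and coq11 and in 14 at rum1 and nup60. The exceptions were 25.5 kb in sap1-1 and 24.9 kb in wild-type at rum1 when the arrays were centred on arm tiles outside enriched regions, and 7.2 kb in sap1-1 and 6.3 kb in wild-type at nup60 with no smoothing. The tile-to-tile scatter is larger on the sap1-1 array, and its part in the narrower widths was not tested.

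At nup60 the width at 50% of the log2 summit height was 2.1 kb in both strains. At apc5 that width was 3.9 kb in sap1-1 and 7.2 kb in wild-type, at rum1 2.1 kb in sap1-1 and 10.5 kb in wild-type, and at coq11 6.0 kb in sap1-1 and 9.0 kb in wild-type. These widths depend on the processing: the GC correction gave 3.6 kb in sap1-1 and 9.0 kb in wild-type at nup60, and within-array loess gave 2.1 kb in wild-type at apc5, rum1 and nup60 alike.

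The rum1 origin was lopsided in both strains, with most of the incorporation on the duo1 side, to the left. From -1 (all to the left) to 1 (all to the right), the asymmetry of the ratio summed within 10 kb of the summit was -0.33 in sap1-1 and -0.33 in wild-type. To the right of rum1 the profile fell below the array median at 6 to 10 kb, with means of -0.48 in sap1-1 and -0.27 in wild-type, while at the same distance to the left the means were 1.90 in sap1-1 and 2.48 in wild-type. The same measure was 0.17 in sap1-1 and 0.13 in wild-type at apc5, 0.06 in both strains at coq11, and 0.06 in sap1-1 and 0.01 in wild-type at nup60. With a correction for GC content the rum1 values came to -0.03 in sap1-1 and -0.06 in wild-type, measured from a summit that then lay 2.7 kb further left in both strains. The same correction gave 0.10 in sap1-1 and -0.18 in wild-type at apc5, and 0.25 in sap1-1 and 0.11 in wild-type at coq11.

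Several secondary peaks lay on the duo1 side. Counting smoothed maxima of at least 1 that stand 0.75 above their surroundings, the rum1 region held 9 in sap1-1 and 8 in wild-type, of which 7 were shared to within 600 bp. The tallest of them outside the summit lay 2.7 kb to the left (3.40 in sap1-1 and 3.07 in wild-type) and 7.8 kb to the left (3.04 in sap1-1 and 3.13 in wild-type). The rum1 window holds a row of peaks in both strains. At apc5 there were 6 in sap1-1 and 5 in wild-type, 4 of them shared, including peaks 7.8 kb (2.46 in sap1-1 and 2.47 in wild-type) and 10.5 kb (2.0 in sap1-1 and 2.05 in wild-type) to the right. At coq11 there were 3 in sap1-1 and 2 in wild-type, and at nup60 4 in sap1-1 and 2 in wild-type. Over the 4 regions, 17 of 22 sap1-1 peaks and 16 of 17 wild-type peaks lay on tiles that are not mainly coding. Of all tiles of the windows, 38 of 117 at apc5, 68 of 134 at rum1, 48 of 117 at coq11 and 32 of 96 at nup60 were of that class. Their median AT content was 67.8% to 69.0% by window, against 60.3% to 62.0% for coding tiles, and the part of AT content in the count was not tested.

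The mean level over the wild-type region was lower in sap1-1 at all 4 loci, most at coq11. At apc5 it was 1.65 in sap1-1 and 1.82 in wild-type, a difference of -0.18 ± 0.06 (SE, 65 tiles). At rum1 it was 1.76 in sap1-1 and 2.13 in wild-type (-0.37 ± 0.07, 81 tiles), and at nup60 1.32 in sap1-1 and 1.63 in wild-type (-0.32 ± 0.08, 42 tiles). At coq11 it was 1.47 in sap1-1 and 2.06 in wild-type, a difference of -0.59 ± 0.06 (64 tiles). Regions drawn on the sap1-1 array gave -0.09 at apc5, -0.30 at rum1, -0.52 at coq11 and -0.29 at nup60.

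Over the whole windows the differences at apc5 (-0.16 ± 0.07), rum1 (-0.20 ± 0.06) and nup60 (-0.18 ± 0.06) were close to the mean of -0.15 over all tiles, and that at coq11 was -0.51 ± 0.07. Dividing the sap1-1 profile by the slope of its broad profile on that of wild-type (0.85) brought the window differences to -0.0045, -0.0092 and 0.0083 at apc5, rum1 and nup60, and to -0.38 at coq11. Among 153 other arm regions of at least 5 kb, 132 were lower in sap1-1, with a median difference of -0.33 and quartiles of -0.52 and -0.11. Ranked with those regions from the most negative, coq11 stood at 26 of 154, rum1 at 72, nup60 at 80 and apc5 at 112. No locus was the most negative, and apc5, rum1 and nup60 lay within the quartiles.

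**Figure D2:**
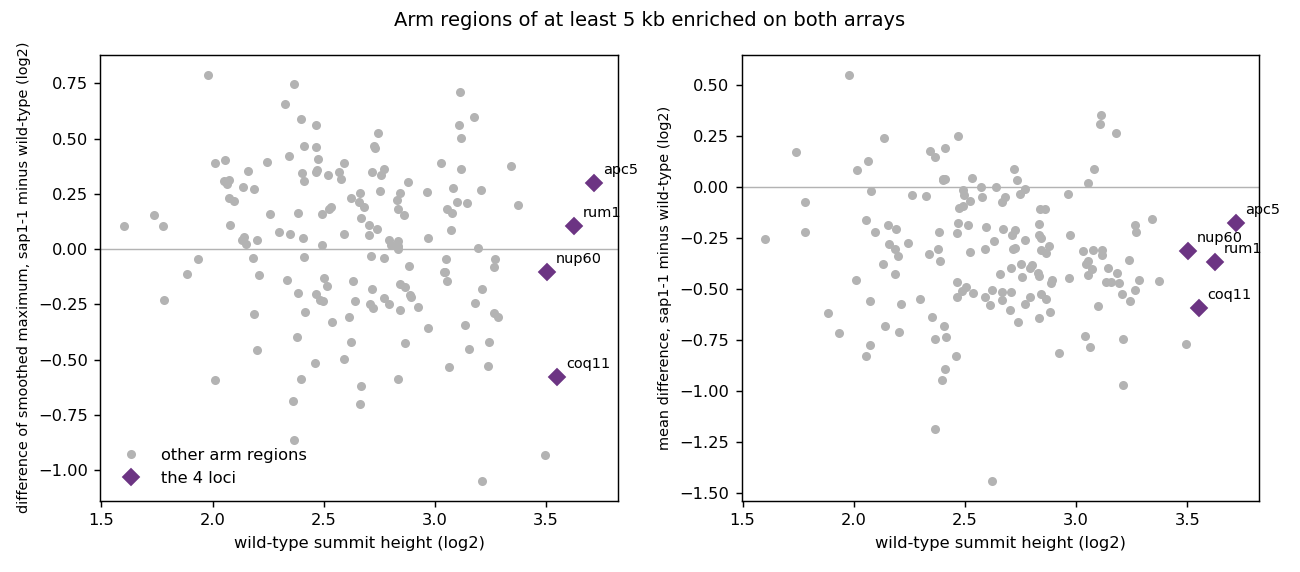
Each point is an arm region of at least 5 kb enriched on both arrays, 153 in grey and the 4 loci as diamonds, with the wild-type summit height (log2) on the x axis. The y axis is sap1-1 minus wild-type in log2, for the smoothed maximum on the left and for the mean over the region on the right. The 4 loci sit at the right edge, by which they were chosen, and coq11 is the lowest of them in both panels (-0.58 and -0.59).

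Tile by tile, 42 of 65 tiles at apc5, 59 of 81 at rum1, 60 of 64 at coq11 and 32 of 42 at nup60 were lower in sap1-1, against 55.8% of all chromosome tiles. Tiles at least 2-fold lower numbered 4, 9, 11 and 4 in the same order, which is 6.15%, 11.1%, 17.2% and 9.52%, against 17.1% of all chromosome tiles. Tiles at least 2-fold higher numbered 0, 0, 0 and 1, against 10.3% of all. Tiles high in wild-type are seldom 2-fold higher elsewhere either. On the arms outside the 4 windows, tiles with a wild-type ratio of 3 or more, 2 to 3 and 1 to 2 were 2-fold higher in 0.50%, 0.39% and 1.87%. In the same order, 7.04%, 10.3% and 16.1% of them were 2-fold lower. Among the 153 other arm regions of at least 5 kb the median share of tiles lower in sap1-1 was 73.0%, and by that share coq11 (93.8%) ranked 5 of 154, nup60 ranked 69, rum1 78 and apc5 97. The share of 2-fold lower tiles at coq11 was near that of the whole array.

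At apc5 and rum1 the few tiles of 3 or more in wild-type stood apart from the lower classes, and at coq11 the classes were alike. The classes are cut on the wild-type value, which is also a term of the difference. Tiles with a wild-type ratio of 3 or more averaged 3.70 in sap1-1 and 3.50 in wild-type at apc5 (6 tiles, 0.20 ± 0.07) and 3.42 in sap1-1 and 3.35 in wild-type at rum1 (8 tiles, 0.06 ± 0.07). Tiles of 2 to 3 differed by -0.22 ± 0.12 at apc5 (22 tiles) and by -0.47 ± 0.11 at rum1 (40 tiles). Tiles of 1 to 2 differed by -0.19 ± 0.09 at apc5 (30 tiles) and by -0.35 ± 0.12 at rum1 (31 tiles). The difference thus did not grow further below the class of 2 to 3. At coq11 the 5 tiles of 3 or more differed by -0.61 ± 0.13, the 27 of 2 to 3 by -0.60 ± 0.08 and the 29 of 1 to 2 by -0.58 ± 0.11. At nup60 the 2 tiles of 3 or more differed by -0.07, the 8 of 2 to 3 by -0.41 ± 0.07 and the 28 of 1 to 2 by -0.39 ± 0.10. On the arms outside the 4 windows the same classes differed by -0.15 (199 tiles), -0.30 (2037 tiles) and -0.36 (6031 tiles). There too the tiles of 3 or more differed least.

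By distance, rum1 differed little between the strains near the summit and was lower in sap1-1 on its shoulders. Within 1 kb it averaged 3.06 in sap1-1 and 3.0 in wild-type on the right. On the left it averaged 2.42 in sap1-1 and 2.62 in wild-type there (-0.20 ± 0.26). At 3 to 6 kb to the left it averaged 1.87 in sap1-1 and 2.46 in wild-type (-0.60 ± 0.18, 9 of 10 tiles lower). At that distance to the right it averaged 0.97 in sap1-1 and 1.5 in wild-type (-0.53 ± 0.08, 10 of 10 lower). At 10 to 15 kb to the right the sap1-1 mean was higher, with 0.66 in sap1-1 and 0.43 in wild-type (0.23 ± 0.16). At apc5 the sap1-1 profile was higher just right of the summit, with 3.61 in sap1-1 and 3.24 in wild-type within 1 kb (0.37 ± 0.04, 0 of 3 tiles lower), and lower just left of it, with 1.92 in sap1-1 and 2.56 in wild-type (-0.64 ± 0.39). At nup60 the sap1-1 mean was lower in every bin except that 6 to 10 kb to the right, with 0.82 in sap1-1 and 0.59 in wild-type. At coq11 all 10 bins of distance out to 15 kb on either side were lower in sap1-1, between -0.35 and -0.87. The deficit at coq11 therefore runs past the edges of the enriched region: 10 to 15 kb to the left the means were -0.81 in sap1-1 and 0.06 in wild-type.

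**Figure D3:**
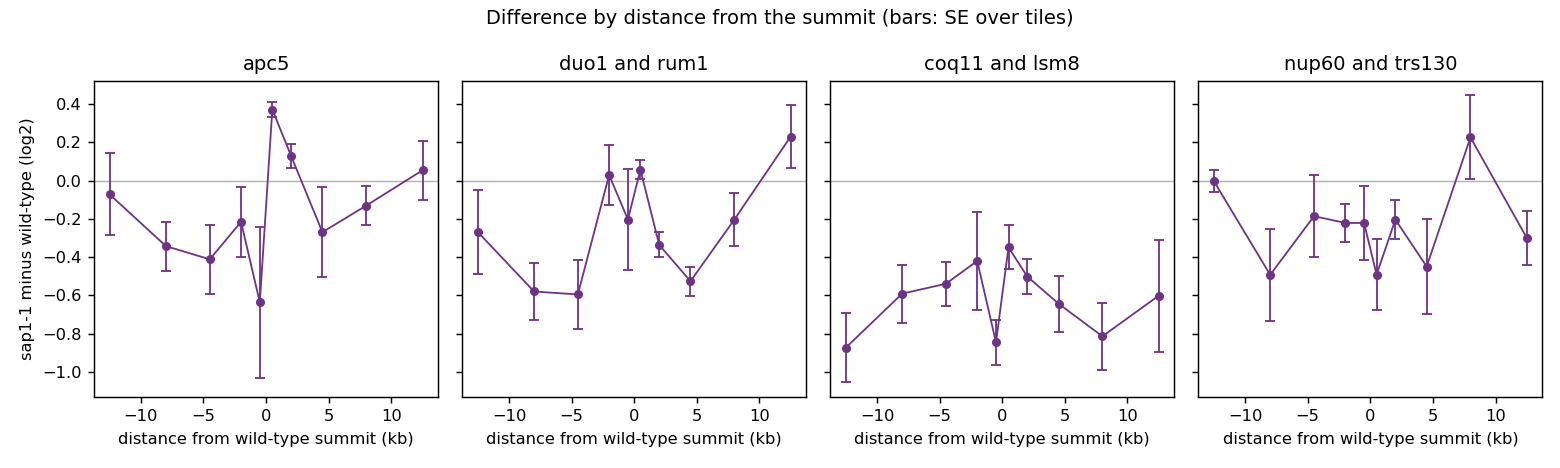
Mean sap1-1 minus wild-type (log2, y) in bins of distance from the wild-type summit (kb, x; left of the summit negative), with SE over tiles as bars. The coq11 points all lie below 0, while at apc5 and rum1 some bins near the summit lie above it.

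The genes themselves followed the profiles they lie in. The mean ratio over the tiles of apc5 was 2.0 in sap1-1 and 2.32 in wild-type (12 tiles, 10 lower in sap1-1). The duo1 gene had 2.61 in sap1-1 and 2.82 in wild-type (5 tiles, 3 lower), and rum1 had 1.89 in sap1-1 and 2.16 in wild-type (8 tiles, 7 lower). The nup60 gene had 1.07 in sap1-1 and 1.33 in wild-type (9 tiles, 7 lower), and trs130 had 1.06 in sap1-1 and 1.35 in wild-type (21 tiles, 13 lower). The difference was larger at coq11 than at the other 6 genes: 1.57 in sap1-1 and 2.61 in wild-type, or -1.04 ± 0.05 over 5 tiles, all lower. Its neighbour lsm8 had 1.91 in sap1-1 and 2.53 in wild-type (-0.62 ± 0.08, 3 of 3 tiles lower). These values are BrdU incorporation over the gene bodies and carry no information on expression.

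**Figure D4:**
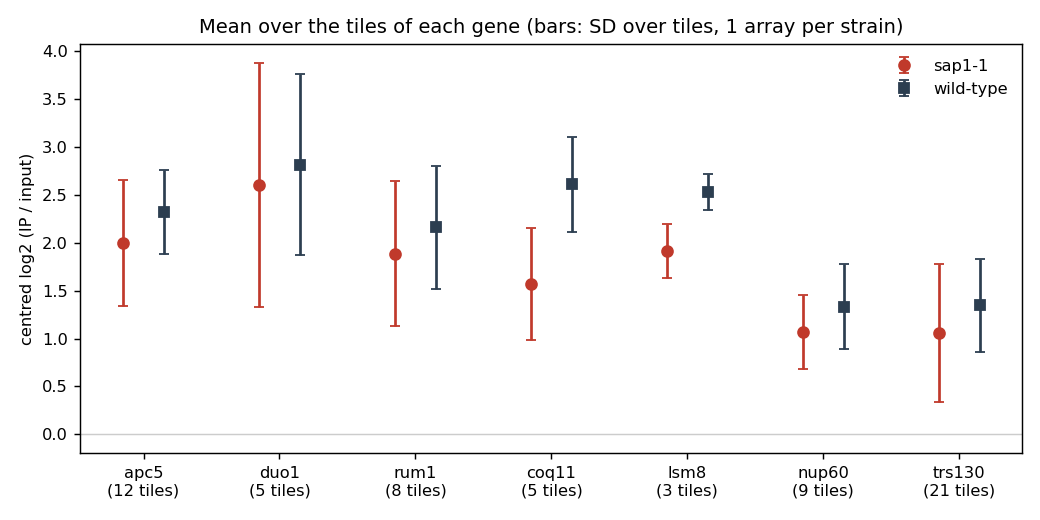
Mean centred log2 IP over input over the tiles of each of the 7 genes (y), sap1-1 as circles and wild-type as squares; bars are the SD over tiles of 1 array. The strains lie furthest apart at coq11 (1.57 in sap1-1 and 2.61 in wild-type).

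Other genes within 3 kb of a summit had the same sign in most cases. At apc5, SPAP32A8.02 had 1.83 in sap1-1 and 1.97 in wild-type, and bop1 had 1.5 in sap1-1 and 1.78 in wild-type. Left of duo1, SPBC32F12.07C had 2.40 in sap1-1 and 2.55 in wild-type, and pch1, a cyclin of the kinase that acts on transcription elongation, had 2.33 in sap1-1 and 2.56 in wild-type. Left of coq11, pdi5 had 2.0 in sap1-1 and 2.22 in wild-type. The coq11 summit also lies inside the non-coding gene SPNCRNA.516, which spans the printed coq11 sequence, and which had 2.67 in sap1-1 and 3.11 in wild-type (8 of 8 tiles lower). Of 16 non-coding genes within 3 kb of the 4 summits, 11 were lower in sap1-1, with differences between -0.96 and 0.41. By locus, 2 of 5 were lower at apc5, 2 of 2 at rum1, 3 of 5 at coq11 and 4 of 4 at nup60. Of all chromosome tiles, 55.8% were lower in sap1-1, and the share over all non-coding genes is not given here. Outside that distance, and named after its value was seen, orc2, the gene of an origin recognition complex subunit, lies at the left edge of the wild-type rum1 region with 1.05 in sap1-1 and 1.58 in wild-type (6 tiles, 3 lower).

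Of 71 genes in the lists of the same complexes or pathways, 11 had a mean of at least 1 in sap1-1 and 10 in wild-type, while over all 5107 protein-coding genes 16% reached 1 in sap1-1 and 21.3% in wild-type. None of 12 genes of the anaphase-promoting complex reached 1 in either strain, and the highest of them in wild-type was apc10 at -0.47. The nucleoporin gene ely5 (1.96 in sap1-1 and 2.50 in wild-type) and the DASH gene spc19 (1.59 in sap1-1 and 2.39 in wild-type) were the highest partners of nup60 and duo1 by the wild-type value. The listed partner lsm7, 3.13 kb from the nup60 summit, lies in the nup60 region itself (0.80 in sap1-1 and 1.36 in wild-type). The medians over all listed genes were -0.35 in sap1-1 and -0.47 in wild-type, against -0.14 in sap1-1 and -0.07 in wild-type over all protein-coding genes.

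All 4 summits lay on tiles of low input signal, the denominator of the ratio. Relative to its array median in log2, the Cy3 input at the summit (mean of 3 tiles) was -1.29 in sap1-1 and -1.36 in wild-type at apc5, and -1.84 in sap1-1 and -1.86 in wild-type at rum1. It was -2.84 in sap1-1 and -3.04 in wild-type at coq11, and -2.79 in sap1-1 and -2.97 in wild-type at nup60. The nup60 summit tile had a Cy5 IP signal of 823 in sap1-1 and 992 in wild-type, and a Cy3 input signal of 66.2 in sap1-1 and 71.0 in wild-type, where the array medians of Cy5 were 870.6 in sap1-1 and 913.1 in wild-type. The coq11 summit tile had Cy5 signals of 511 in sap1-1 and 890 in wild-type, and Cy3 signals of 85.7 in sap1-1 and 90.9 in wild-type. At both of these tiles the IP signal was near or below the median of its array, and the ratio was high over a dim input. At the apc5 summit tile the Cy5 signal was 6651 in sap1-1 and 5291 in wild-type, over Cy3 signals of 368 in sap1-1 and 397 in wild-type.

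**Figure D5:**
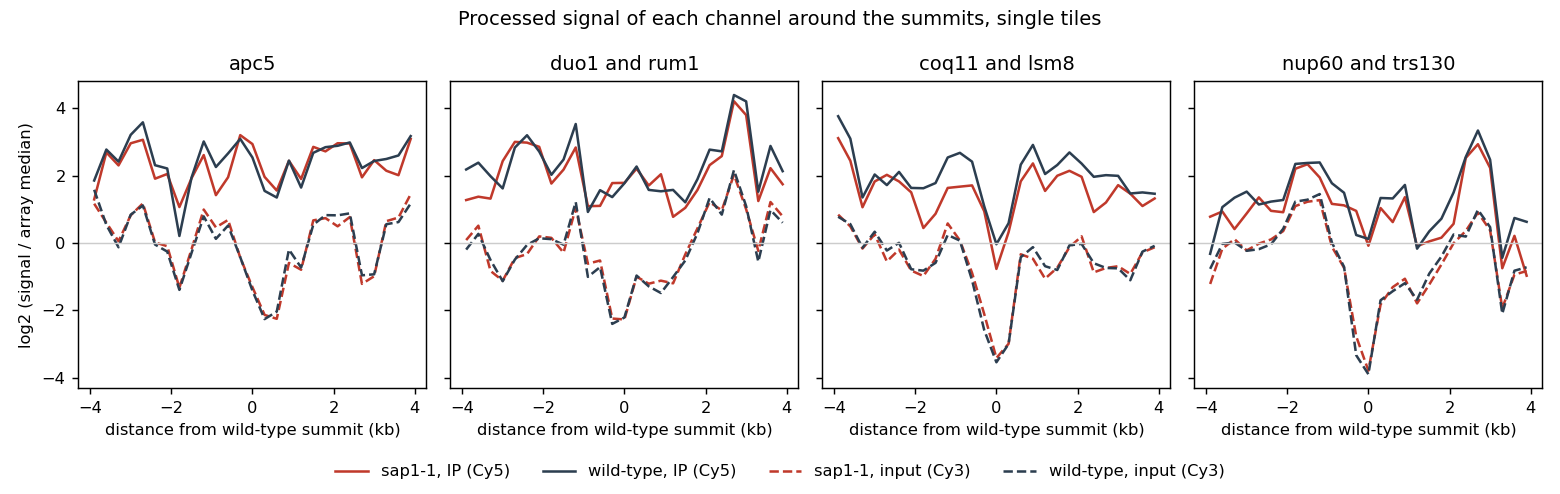
Processed signal of IP (Cy5, solid) and input (Cy3, dashed) as log2 over the array median (y) within 4 kb of each wild-type summit (x, kb), sap1-1 in red and wild-type in blue. The input dips at every summit, by about 3 log2 units at coq11 and nup60, and there the IP signal dips too.

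Low input went with AT content: the summit tile held 78.0% AT at apc5, 72.7% at rum1, 74.3% at coq11 and 78.3% at nup60, where the median tile of the windows held 62.8% to 64.3%. When the ratio was taken relative to tiles of like GC content, the summits came to 2.82 in sap1-1 and 2.51 in wild-type at apc5, 3.46 in sap1-1 and 3.17 in wild-type at rum1, 2.29 in sap1-1 and 2.75 in wild-type at coq11, and 2.27 in sap1-1 and 2.33 in wild-type at nup60. The ranks by that scale were 21, 3, 82 and 89 in sap1-1 and 47, 4, 27 and 70 in wild-type, in the same order. The rum1 region alone thus stayed among the 4 tallest arm regions of either array. Its maximum on that scale lay 2.7 kb left of the summit in both strains, so the rank belongs to another peak of the region. How much of each height goes with AT content or with dim input was not tested. These ranks were computed after seeing the data. Over the wild-type regions Cy3 differed by 0.03, 0.03, 0.04 and -0.01 (sap1-1 minus wild-type), and Cy5 by -0.15 at apc5, -0.34 at rum1, -0.56 at coq11 and -0.33 at nup60. At the summits (3 tiles) the input differed more at 2 loci: Cy3 differed by 0.07 at apc5, 0.02 at rum1, 0.20 at coq11 and 0.18 at nup60, and Cy5 by 0.31 at apc5, 0.12 at rum1, -0.38 at coq11 and 0.07 at nup60. At nup60 the slightly higher mean IP signal of sap1-1 rests on the tile 300 bp to the left (1684 in sap1-1 and 1076 in wild-type). The summit tile (823 in sap1-1 and 992 in wild-type) and the tile 300 bp to the right (1785 in sap1-1 and 2302 in wild-type) had less IP signal in sap1-1. The lower summit ratio of sap1-1 at coq11 (-0.58) went with both a lower IP and a higher input signal.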

How the data were processed

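The deposited intensity values (processed Cy5 and Cy3 signals) were made with Agilent Feature Extraction 10.7.3.1, per the file headers and the submitters' processing notes, which subtracts background and scales each dye. The deposited log10 ratios equal the log10 of processed Cy5 over Cy3. Spots marked as outliers (12) were left out, and 41240 tiles at a spacing of 300 bp remained. Ratios were converted to log2, centred on each array's median and given no loess or quantile step. Python 3.11.15 and limma 3.58.1 (for alternatives) were used. For the tile numbering the genome build was not given in the sources used here. The offset of tile numbering to ASM294v3 (-900, -1800 and -900 bp on the 3 arms used) was found by matching GC content to the input signal (r = 0.578, 0.589 and 0.549). It names genes to within about 1 tile. The measures were checked on simulated profiles. The members, gene lists and comparisons were chosen with earlier results of these data known. Genes named are the 7 members, genes within 3 kb of a summit, at most 4 list partners, and orc2, chosen after its value was seen. The normexp alternative used median spot signals, since the mean spot signal is not used here. The 614 sap1-1 and 434 wild-type arm regions lie outside the outer 100 kb of the chromosomes, the pericentromeres and the mating-type region. The sequence of the gap between duo1 and rum1 is not reported here.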

Additional observations from a re-analysis of the deposited data

How the results depend on the processing

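No paired analysis was possible because each strain has 1 array. The array holds 1 probe per tile and no replicate, so brightness of the input and tile scatter limit every value, and summits over dim input (Cy3 of 66.2 in sap1-1 and 71.0 in wild-type at the nup60 summit tile) are the least precise. Of 44 mean differences over windows and 44 over wild-type regions (4 loci, 11 alternatives each), 37 and 35 moved by no more than 2 SE over tiles. Centring on the mode of each array (0.10 in sap1-1 and -0.43 in wild-type) moved the window differences to -0.70 (apc5), -0.73 (rum1), -1.04 (coq11) and -0.71 (nup60), and the region differences to -0.71, -0.90, -1.13 and -0.85 in the same order. Dividing the sap1-1 values by the slope of both broad profiles gave window differences of -0.0045 (apc5), -0.0092 (rum1) and 0.0083 (nup60), and region differences of 0.11 (apc5), -0.057 (rum1), -0.33 (coq11) and -0.083 (nup60), so the sign turned at apc5 (region) and nup60 (window). Within-array loess gave -0.45 for the coq11 region. For the mode and the slope the change follows from the shift or scale applied, and for loess the cause was not tested. The coq11 difference was negative and its summit lower in sap1-1 under every setting run (14 of 14 for the summit, from -1.11 to -0.05). The apc5 summit was higher in sap1-1 in 13 of 14 settings (not when centred on the mode, -0.23), the rum1 summit in 11 and the nup60 summit in 4, so the strains have no fixed order at rum1 and nup60. The asymmetry of the width at the threshold turned sign in sap1-1 at apc5 (0.49) under loess (-0.087), normexp (-0.038) and a threshold of 1.5 (-0.087), and at nup60 (0.53) under the slope (-0.30) and the GC correction (-0.28), so it is not reported as a result. Settings with 1 of the 2 interleaved probe sets, and GC-corrected ranks, were chosen after seeing the data. With the probes without a suffix alone, coq11 ranked 146 in sap1-1 and 14 in wild-type.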
